A study of Homo sapiens with 8 samples.

Results

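The 7 genes described here encode the contents of the cytotoxic granule: the granzymes GZMA, GZMB, GZMH and GZMM, the pore-forming protein PRF1 (perforin), the granule proteoglycan SRGN (serglycin) and the granule membrane protein NKG7. They were taken by gene symbol from the 60754 genes in the deposited files, and each symbol matched 1 gene. The members were chosen from measured values: the response of GZMB to phorbol ester in these same libraries was already known, so the effect of phorbol ester on the members is given as a description with no p-value, and nothing is read from how many of them passed the threshold. All libraries came from MEG-01 cells, an established line grown from a human megakaryoblastic leukaemia. The 4 groups of 2 libraries were untreated cells, cells given phorbol 12-myristate 13-acetate (PMA, which activates protein kinase C and pushes these cells toward megakaryocytes) at 100 nM for 48 h, cells given PMA at 100 nM together with 20 µM Ceefourin 2 for 48 h, and cells given Ceefourin 2 without PMA for 48 h. Ceefourin 2 is an inhibitor of the nucleotide exporter ABCC4, and the sources used here do not state its dose for the group without PMA. No genotype differed between the groups, and no source used here says whether the 2 libraries of a group came from separate cultures, so the p-values measure only the spread between these libraries, which may be technical.

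Natural killer cells and cytotoxic T cells store granzymes, which are serine proteases, in secretory lysosomes. SRGN carries chondroitin sulfate chains that hold the basic granzymes and PRF1 in the granule, and on release PRF1 opens the membrane of the target cell so that granzymes enter it. SRGN is also the main proteoglycan of platelet and megakaryocyte granules, where it binds platelet factor 4, while granzymes and PRF1 are best known from lymphocytes. GZMB cuts after aspartate and can activate caspases, GZMA and GZMM cut after other residues, and GZMH is the closest relative of GZMB and lies beside it.

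The sequence before the start of GZMB is shown because it is the member with the largest difference after PMA. That of GZMH is shown because it is the silent neighbour and closest relative. That of GZMA is shown because its level moved with Ceefourin 2 instead. They are RefSeq promoter sequences of GRCh38.p14, read 5′ to 3′ on the strand of the gene, and end before the outermost annotated start. They cover chr14:24634268-24634440 on the minus strand for GZMB, chr14:24609700-24609935 on the minus strand for GZMH and chr5:55102396-55102645 on the plus strand for GZMA.
GZMB: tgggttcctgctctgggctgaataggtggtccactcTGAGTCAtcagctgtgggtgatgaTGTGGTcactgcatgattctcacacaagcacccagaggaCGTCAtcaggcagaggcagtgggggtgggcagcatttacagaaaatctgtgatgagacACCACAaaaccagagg
GZMH: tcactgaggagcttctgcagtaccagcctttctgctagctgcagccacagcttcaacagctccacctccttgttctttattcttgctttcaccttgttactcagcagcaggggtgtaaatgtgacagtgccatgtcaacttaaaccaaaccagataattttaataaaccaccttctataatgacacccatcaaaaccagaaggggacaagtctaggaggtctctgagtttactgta
GZMA: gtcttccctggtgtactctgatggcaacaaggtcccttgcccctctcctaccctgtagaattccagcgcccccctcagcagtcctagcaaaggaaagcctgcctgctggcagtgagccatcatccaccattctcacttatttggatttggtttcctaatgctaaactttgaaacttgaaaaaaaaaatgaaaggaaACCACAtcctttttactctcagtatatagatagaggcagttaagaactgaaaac
Capitals mark matches, on either strand, to the AP-1 motif TGANTCA (bound by FOS and JUN dimers), the short cyclic AMP element TGACG or the RUNX motif TGTGGT. In the 250 bases before its RefSeq start GZMB held TGAGTCA, 214 to 208 bases before the start, CGTCA (the short cyclic AMP element on the opposite strand) 151 to 147 bases before it, and RUNX matches at 190 to 185 and 93 to 88 bases. An AP-1 match stood in 6.57% of 35116 RefSeq promoters of that length, the short cyclic AMP element in 21.22% and the RUNX motif in 10.98%. The full cyclic AMP element TGACGTCA, which contains the short one, stood in 1.65% and in none of the members. A RUNX match also stood 54 to 49 bases before the start of GZMA and 62 to 57 bases before that of PRF1. Of the 7 members, 5 had an entry, and SRGN and GZMM had none. A match describes the letters and not a bound site.

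Expected counts summed to 44430292 in the shallowest library (untreated replicate 1) and 89950886 in the deepest (PMA plus Ceefourin 2 replicate 2). The mitochondrial share of counts was 9.61% and 4.53% in the PMA libraries and 8.32% and 4.94% in those with both agents, against 2.55% to 3.94% in the other 4 libraries. Of 10 megakaryocyte markers 9 or 10 had counts in each group, summing to 623 to 699 CPM (counts scaled to library size, with TMM factors) in untreated and 2760 to 3020 in PMA libraries. PF4, a defining gene of mature megakaryocytes, was in effect undetected. It had 1 count in 1 library given PMA plus Ceefourin 2 and 0 counts in all other libraries. Of 17314 genes tested with edgeR, 53.6% were called after PMA, that is, had a Benjamini-Hochberg adjusted p below 0.05.

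GZMB was nearly silent without PMA and abundant with it. It lies on chromosome 14 at 24630954 to 24634267 on the minus strand (GRCh38). The untreated libraries held 1 and 2 counts, and those with Ceefourin 2 alone 6 and 5. With PMA there were 10110 and 3220 counts, or 171.4 and 69.6 CPM, and with PMA plus Ceefourin 2 there were 14114 and 22716, or 286.6 and 274.7 CPM. Every library with PMA was thus far above every library without it, and the 2 PMA libraries differed from each other more than those that also had the inhibitor. Per length, on the deposited TPM scale, which also divides by transcript length, GZMB went from 0.09 and 0.12 to 270.3 and 111.32, which moved it from rank 17987 and 17413 among the 60754 genes to rank 435 and 1217. With PMA plus Ceefourin 2 it stood at rank 255 and 285. The ratio of summed counts, scaled for library size, was 4620 for PMA over untreated (95% interval 1580 to 22400, counting error only), and the fitted log2 fold change of 12.00 (SE 0.70) was the 5th highest of 17314. It was 11.21 without PMA replicate 1, 12.51 without PMA replicate 2 and 7.30 on log2(TPM + 1). In the presence of Ceefourin 2 the ratio with PMA over without was 3200 (1790 to 6420). In bulk RNA, a larger share of cells with the transcript and more transcript per cell cannot be told apart.

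SRGN was abundant in every group and higher with PMA. It lies on chromosome 10 at 69088106 to 69104811 on the plus strand. Untreated libraries had 118.7 and 140.9 CPM, PMA libraries 275.7 and 336.1, those with PMA plus Ceefourin 2 had 293.0 and 332.8, and those with Ceefourin 2 alone 117.3 and 124.1. The groups with PMA did not overlap those without it, and within each level of PMA the inhibitor groups overlapped their controls. The log2 fold change was 1.24 (SE 0.13) for PMA over untreated and 1.37 (SE 0.13) when both groups had Ceefourin 2. On the TPM scale SRGN stood at 161.75 and 175.52 in untreated cells (rank 951 and 802) and 297.73 and 366.53 after PMA (rank 390 and 339).

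GZMA was low in all groups and showed no such step. The gene lies on chromosome 5 at 55102648 to 55110252 on the plus strand. It had 79 and 125 counts in untreated libraries (1.64 and 2.04 CPM) and 95 and 84 after PMA (1.61 and 1.82 CPM), and these groups overlapped. The log2 fold change for PMA was -0.11 (SE 0.25). The highest values were in cells given Ceefourin 2 alone, with 252 and 327 counts (3.93 and 5.27 CPM), and those given both agents lay between, with 113 and 251 counts (2.30 and 3.04 CPM).

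PRF1, on chromosome 10 at 70597348 to 70602775, stayed at the edge of detection. Its counts were 6 and 14 in untreated cells, 13 and 14 after PMA, 19 and 34 with PMA plus Ceefourin 2, and 0 and 4 with Ceefourin 2 alone. The library with the most PRF1 thus held 34 counts, while GZMB had 22716 in it. The log2 fold change for PMA over untreated was 0.52 (SE 0.65), and when both groups had Ceefourin 2 it was 3.57 (SE 0.79), with a ratio of summed counts of 12.7 (95% interval 4.67 to 48.2, counting error only). The fitted value depended on which Ceefourin 2 library was used: it was 2.58 without Ceefourin 2 replicate 1, 7.56 without Ceefourin 2 replicate 2 and 0.21 on log2(TPM + 1).

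NKG7, a membrane protein of cytotoxic granules encoded on chromosome 19 at 51371606 to 51372715, was also scarce. It had 22 and 43 counts in untreated cells, 21 and 26 after PMA, 11 and 17 with PMA plus Ceefourin 2 and 32 and 54 with Ceefourin 2 alone. The PMA and untreated groups overlapped (log2 fold change -0.36, SE 0.42), and the libraries with both agents were below the others. GZMM, on chromosome 19 at 544034 to 549924, had 0 and 0, 1 and 1, 2 and 0, and 2 and 0 counts in the same order of groups. GZMH, on chromosome 14 at 24606480 to 24609699, had 0 counts in all 8 libraries, and 3 counts over a group, the limit that a count of 0 allows, would be 0.0227 to 0.0285 CPM. GZMH and GZMM did not pass the filter on low counts, so 5 of the 7 members were tested. With only the untreated and Ceefourin 2 libraries, GZMB and PRF1 did not pass it either.

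**Figure D1:**
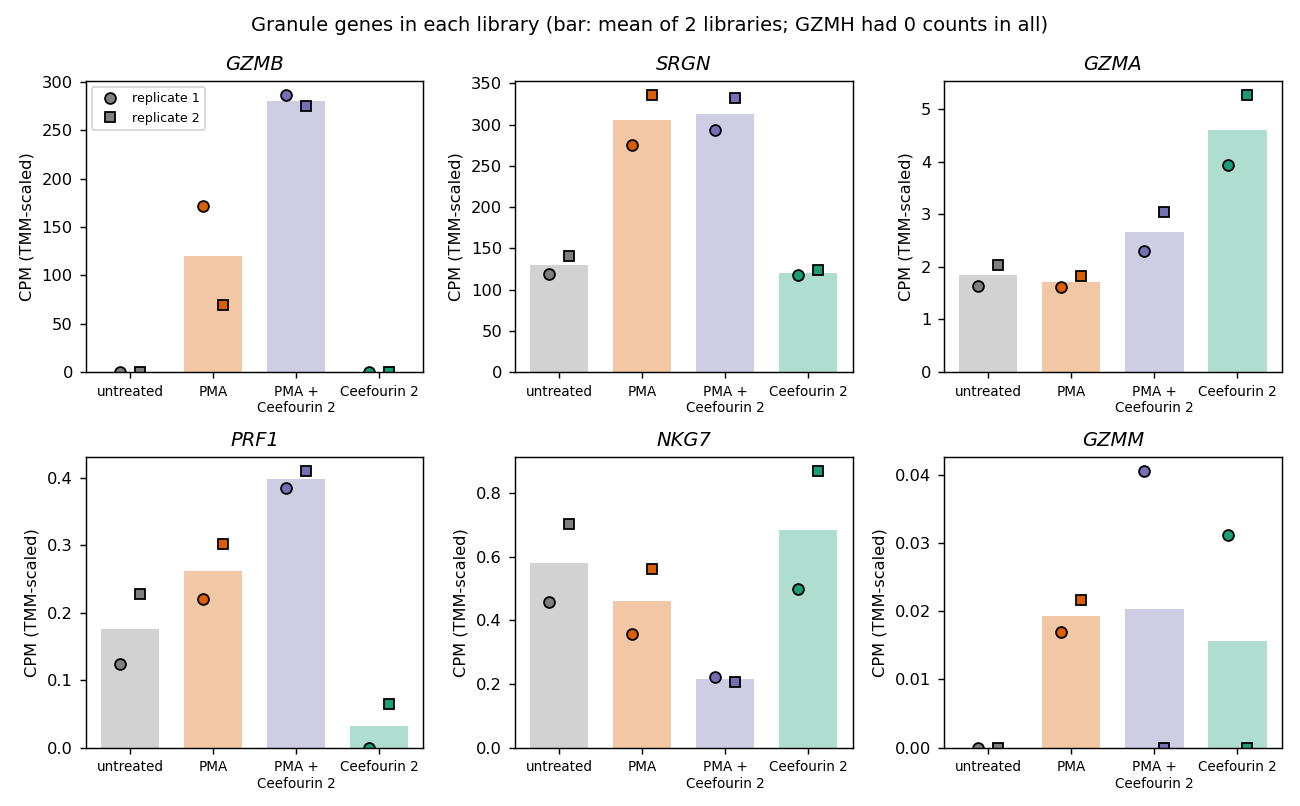
CPM with TMM scaling in each of the 8 libraries for 6 members, with circles for replicate 1, squares for replicate 2 and bars for the mean of 2 libraries; each panel has its own linear axis. GZMB and SRGN were high in the libraries with PMA, GZMA was highest in those with Ceefourin 2 alone (3.93 and 5.27 CPM), and PRF1, NKG7 and GZMM stayed below 1 CPM.

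The order of the members per length changed with treatment. In untreated cells mean TPM was 168.6 ± 9.74 (SD, n = 2) for SRGN, 3.38 ± 0.30 for GZMA, 1.25 ± 0.29 for NKG7, 0.105 ± 0.021 for GZMB and 0.095 ± 0.035 for PRF1, and only the last pair overlapped. After PMA GZMB, at 191 ± 112 TPM, was second to SRGN at 332 ± 48.6 TPM, and their libraries did not overlap. With PMA plus Ceefourin 2 GZMB stood above SRGN, at 456.06 and 420.42 TPM against 317.6 and 348.22. With Ceefourin 2 alone the order was that of untreated cells, with SRGN at 159.6 ± 0.21 TPM and GZMA at 8.58 ± 1.43.

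Of the 5 members tested, 2 were called after PMA, both higher (GZMB and SRGN), beside the 53.6% of all tested genes, and nothing is read from that count because the response was used to choose them. For PMA plus Ceefourin 2 over Ceefourin 2 alone, 5 of 5 were called (GZMB, SRGN and PRF1 higher, GZMA and NKG7 lower), beside 53.5% of all tested genes, and likewise nothing is read from it.

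Setting PMA plus Ceefourin 2 against PMA compared cells given PMA for 48 h with and without the inhibitor over that time. GZMB had a mean of 281 ± 8.45 CPM (SD, n = 2) with the inhibitor and 121 ± 72 without it. The log2 difference of 1.22 (SE 0.33) was not called by edgeR (adjusted p = 0.139), although both libraries with the inhibitor lay above both without. It depended on which PMA library was used: without PMA replicate 1 it was 2.01 and called (adjusted p = 0.00452), and without PMA replicate 2 it was 0.71 (adjusted p = 0.0764). Within replicate number 1 GZMB went from 171.4 to 286.6 CPM, and within number 2 from 69.6 to 274.7. PMA replicate 1 was also the library with 9.61% mitochondrial counts, whose part in the GZMB difference was not tested. With both PMA-treated libraries numbered 1 left out the value was 1.98 (adjusted p = 0.0772).

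SRGN did not move with the inhibitor in PMA cells beyond its spread, at 313 ± 28.1 against 306 ± 42.7 CPM (log2 0.03, SE 0.13, adjusted p = 0.954 by edgeR). GZMA was at 2.67 ± 0.52 against 1.71 ± 0.14 CPM (log2 0.65, SE 0.24, adjusted p = 0.282). NKG7 was at 0.214 ± 0.013 against 0.459 ± 0.15 CPM (log2 -1.08, SE 0.46, adjusted p = 0.351), and PRF1 at 0.398 ± 0.018 against 0.262 ± 0.058 (log2 0.62, SE 0.60, adjusted p = 0.745). Called by edgeR were 0 of 5 members, beside 1.83% of all tested genes. At an unadjusted p under 0.05 edgeR gave 3 of 5, beside 13.7% of all tested genes, and DESeq2 and limma each called 0. The groups did not overlap for 4 of 5 members (GZMB, GZMA, PRF1 and NKG7), beside 45.4% of all tested genes.

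Ceefourin 2 alone against untreated cells tested the inhibitor without PMA. GZMA was the member that rose, from 1.84 ± 0.28 to 4.60 ± 0.95 CPM (SD, n = 2), which edgeR called (log2 1.31, SE 0.24, adjusted p = 0.0418) with both treated libraries above both untreated ones. That is 1 of 5 members called, beside 1.68% of all tested genes. GZMB and PRF1 were among the 5 only through the libraries with PMA, so nothing is read from their lack of a call here. The call sat close to the threshold: it was lost when any 1 of the 8 libraries was left out, with adjusted p from 0.0542 (without Ceefourin 2 replicate 1) to 0.208 (without untreated replicate 1). The log2 fold change stayed between 1.09 (without Ceefourin 2 replicate 2) and 1.52 (without Ceefourin 2 replicate 1) in those fits. DESeq2 and limma called it too.

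PRF1 had 4 counts in the 2 libraries with Ceefourin 2 alone against 20 in the untreated ones, a ratio of 0.173 (95% interval 0.043 to 0.517, counting error only), and was not called (log2 -2.43, SE 0.87, adjusted p = 0.265 by edgeR). Its log2 value was -1.44 without Ceefourin 2 replicate 1, -6.42 without Ceefourin 2 replicate 2 and -0.095 on log2(TPM + 1). GZMB had 11 counts against 3, a ratio of 3.18 (0.839 to 17.7), and was not called (adjusted p = 0.812). SRGN (log2 -0.11, SE 0.13, adjusted p = 0.815) and NKG7 (0.23, SE 0.40, adjusted p = 0.889) overlapped between these groups. The inhibitor comparisons share libraries with the PMA comparisons, so their values are set side by side only.

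The interaction term asks whether the effect of Ceefourin 2 differed with and without PMA. It was called by edgeR for 0 of 5 members, beside 0.0116% of all tested genes, and DESeq2 and limma called 0. At an unadjusted p under 0.05 there was 1 of 5 (PRF1), beside 7.13% of all tested genes. GZMB and PRF1 were among the 5 only through the libraries with PMA, so nothing is read from these counts. PRF1 was at log2 3.05 (SE 1.06, adjusted p = 0.564 by edgeR), with 2.05 without Ceefourin 2 replicate 1, 7.04 without Ceefourin 2 replicate 2 and 0.14 on log2(TPM + 1). Next in size were NKG7 (-1.31, SE 0.61, adjusted p = 0.748) and GZMA (-0.67, SE 0.34, adjusted p = 0.797). The call for GZMA with the inhibitor alone and its absence in PMA cells are thus not shown to be different effects.

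**Figure D2:**
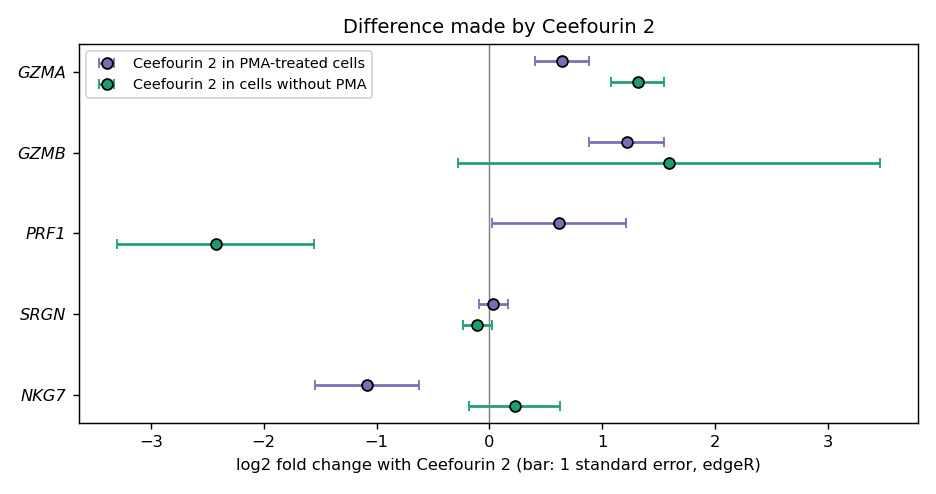
Log2 fold change with Ceefourin 2 for the 5 tested members, in PMA-treated cells and in cells without PMA, with bars of 1 standard error from edgeR. GZMA without PMA (1.31) was the value called, SRGN lay close to 0 in both, and GZMB without PMA had the widest bar because it rests on 11 and 3 counts.

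The genes on either side of GZMB, SRGN and GZMA were read from the same fit. They were picked by position, and those named were singled out after their values were seen. GZMH, 21.3 kb from GZMB, had 0 counts, and the neutrophil protease gene CTSG beyond it stayed at or below 0.26 CPM in every library. On the other side STXBP6, 175.4 kb away, fell from 11.96 to 3.09 CPM after PMA (log2 -1.95, SE 0.22, edgeR adjusted p = 0.000205). Around SRGN, the RNA helicase genes DDX21 (log2 -0.74) and SUPV3L1 (-0.74) fell after PMA (adjusted p = 0.000172 and 0.000467), and VPS26A, 18.7 kb away, was at 66.8 CPM in untreated cells and 64.4 after PMA (log2 -0.05, SE 0.08, adjusted p = 0.624).

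Beside GZMA, GZMK had 0 counts in all libraries at a distance of 68.1 kb. CDC20B, on the opposite strand 2.7 kb beyond the end of GZMA (chromosome 5, 55112995 to 55173175), was low and higher with Ceefourin 2. Its means were 0.136 CPM in untreated cells, 0.0833 after PMA, 0.496 with PMA plus Ceefourin 2 and 0.650 with Ceefourin 2 alone, and the inhibitor groups did not overlap their controls. CDC20B passed the filter on low counts only through the libraries with Ceefourin 2, so its differences are given as a description with no p-value. With the inhibitor the log2 difference was 2.50 in PMA cells (SE 0.43) and 2.23 without PMA (SE 0.39). With any 1 of the 8 libraries left out it was 2.25 to 2.88 in PMA cells and 2.10 to 2.38 without PMA. On log2(TPM + 1) the 2 differences were 0.22 and 0.28. GPX8, which lies within the span of CDC20B on the other strand, did not pass the filter on low counts. The kit keeps strand, but the sources used here do not state whether the counting used it, so reads where these genes overlap may be shared. ESM1, 80.0 kb away on the other side of GZMK, was at 0.0327 CPM in untreated cells and 0.769 after PMA (log2 4.33, SE 0.65). It passed the filter only through the libraries with PMA, so this is a description with no p-value.

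**Figure D3:**
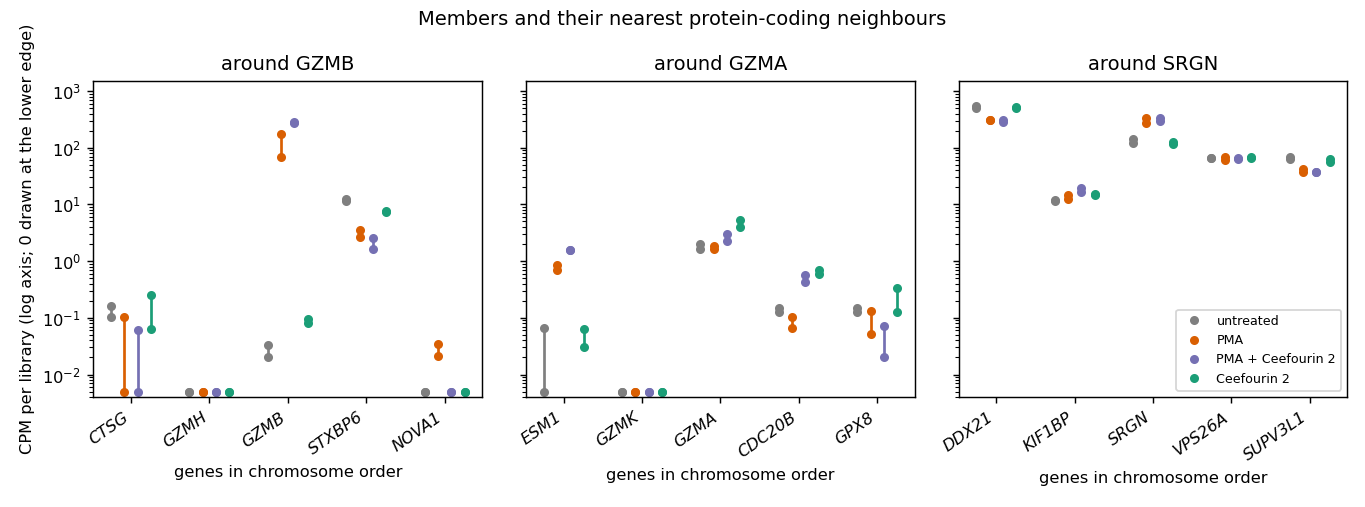
CPM per library on a log axis (0 drawn at the lower edge) for GZMB, GZMA and SRGN and the 2 nearest protein-coding genes on each side, in chromosome order, with 2 points joined per group. GZMB separates from its neighbours, with GZMH at 0 throughout, and CDC20B beside GZMA is higher in both groups with Ceefourin 2.

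Other genes of cytotoxic lymphocytes were largely silent: 7 of 18 listed passed the filter and 3 had 0 counts in every library. Of those 7, edgeR called 5 higher and 2 lower after PMA. FASLG and NCR3 passed the filter only through the libraries with PMA, so nothing is read from that count. CTSW, a cysteine protease of cytotoxic cells, rose from 2.09 ± 0.81 to 22.6 ± 2.83 CPM (SD, n = 2, adjusted p = 3.58e-05). NCR3, a natural killer receptor, was at 0.0408 CPM in untreated cells and 3.55 after PMA, given as a description with no p-value. IL2RB, the interleukin 2 receptor beta chain, rose from 0.335 to 4.41 CPM (adjusted p = 0.000324). CST7, an inhibitor of the cathepsins that process granzymes, rose from 0.804 to 3.03 CPM (adjusted p = 0.00232). Of 12 T cell receptor and surface genes 2 passed the filter: TRAC rose from 0.173 to 1.69 CPM (adjusted p = 0.000442) and CD247, the zeta chain, fell from 2.38 to 0.231 CPM (adjusted p = 4.73e-05).

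Most defining markers of lymphocytes were at or near 0, with TRAC and CD79B the highest. Among 10 markers of natural killer and cytotoxic T cells, 1 (TRAC) passed the filter, and CD3E and CD8B had 0 counts in all 8 libraries. The summed level was 0.229 to 0.245 CPM in untreated libraries, 1.53 to 2.08 after PMA, 0.975 to 1.23 with both agents and 0.193 to 0.312 with Ceefourin 2 alone. After PMA most of that sum was TRAC, at a mean of 1.69 CPM. Of 5 B cell markers 2 passed, with sums of 0.519 to 1.84 CPM over all libraries, and MS4A1 had 0 counts in all. Most of that sum was CD79B, at means of 1.35 CPM in untreated cells and 0.408 after PMA. All 6 mast cell and basophil markers had counts, summing to 366 to 404 CPM in untreated libraries, 757 to 793 after PMA, 310 to 314 with both agents and 310 to 334 with Ceefourin 2. HDC, the histidine decarboxylase gene, and FCER1A, the alpha chain of the IgE receptor, made up most of that sum. In the order untreated, PMA and PMA plus Ceefourin 2, mean CPM was 298, 507 and 269 for HDC and 62.2, 251 and 34.4 for FCER1A. The other way round, CPA3 (mast cell carboxypeptidase) was at 23.2, 13.5 and 6.57 CPM and MS4A2 (the beta chain of the same receptor) at 0.467, 0.0602 and 0.0242. Monocyte and macrophage markers summed to 25.0 to 35.2 CPM over all libraries, with CD163 at 0. Most of that was the lysozyme gene LYZ, at 33.2 CPM in untreated cells and 25.2 after PMA. FCGR1A, an IgG receptor, was at 0.663 and 5.44 CPM in the same groups, and CSF1R, the macrophage growth factor receptor, at 0.00817 and 0.934. The part of these markers in the PMA differences was not tested. Megakaryocyte markers reached 3000 to 3260 CPM with both agents and 807 to 993 with Ceefourin 2 alone. The mast cell sum, through HDC and FCER1A, was thus highest in PMA libraries without the inhibitor, where GZMB was lower than with it, and the part of these markers in the GZMB difference was not tested.

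Granule enzymes of mast cells and neutrophils, most of them serine proteases related to granzymes, were mostly low. The list also held CPA3, a carboxypeptidase, and MPO, a peroxidase, which are not serine proteases. Of its 11 genes 5 were tested, CPA3 among them. After PMA 2 were called higher and 0 lower, the mast cell tryptase genes TPSAB1 (0.660 to 2.48 CPM, adjusted p = 0.00596) and TPSB2 (0.448 to 1.26 CPM, adjusted p = 0.00848), beside 53.6% of all tested genes called, and the median over the 5 was -0.62. TPSAB1 and TPSB2 are near copies whose reads can be split between them. Without untreated replicate 1 TPSB2 was not called (adjusted p = 0.0533), and without both PMA-treated libraries numbered 1 neither was TPSAB1 (0.066).

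Of 14 genes of granzyme activation and lysosomal sorting, all tested, 7 rose and 2 fell after PMA (median 0.24), or 9 of 14 called beside 53.6% of all tested genes. The sorting receptor SORT1 rose from 75.5 ± 3.51 to 250 ± 4.49 CPM, CTSL from 127 to 427 CPM and CTSB from 232 to 664 CPM, the last 2 encoding lysosomal cathepsins, and GGA1, an adaptor of Golgi to lysosome transport, from 43.3 to 71.8 CPM. Their adjusted p ran from 3.12e-06 (SORT1) to 0.000602 (GGA1). CTSC, the dipeptidyl peptidase that removes the activation peptide of granzymes, was at 214 ± 13.7 CPM in untreated cells and 175 ± 13.4 after PMA and was not called (log2 -0.29, adjusted p = 0.0879 by edgeR). It was singled out for its role after its value was seen.

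Among genes that build the chondroitin sulfate chains of SRGN, 18 of 20 listed were tested, and 9 rose and 2 fell after PMA (median 0.52), or 11 of 18 called beside 53.6%. CHST15 among them passed the filter only through the libraries with PMA. The xylose kinase FAM20B rose from 92.3 to 255 CPM, the polymerizing factor CHPF2 from 39.8 to 106, the xylosyltransferase XYLT2, which starts the chain, from 19.1 to 66.0, and the sulfotransferase CHST12 from 9.30 to 22.8 (adjusted p 6.9e-06 to 0.000234). Of 21 tested genes of docking, priming and fusion (22 listed) 11 rose and 2 fell (median 1.03), or 13 of 21 called beside 53.6%. The fusion protein SNAP23 rose from 98.6 to 241 CPM, STXBP2, the syntaxin-binding partner of STX11, from 89.1 to 269, and STX4 from 17.7 to 36.8 (adjusted p 1.23e-05 to 6.45e-05).

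Among inhibitors of granzymes, SERPINB9, the intracellular inhibitor of GZMB, rose from 18.8 ± 1.16 to 42.9 ± 0.69 CPM (log2 1.19, SE 0.10, adjusted p = 5.09e-05) and SERPINB4 from 0.178 to 1.72 CPM, which were 2 higher and 0 lower of 4 tested (median 0.80), beside 53.6% of all tested genes called. Of 25 substrates and cell death effectors 4 rose and 16 fell (median -0.39), or 20 of 25 called beside 53.6%. The lamin gene LMNA rose from 118 to 545 CPM and the survival gene MCL1 from 159 to 411, while ANP32A and NME1, both of the SET complex that GZMA acts on, fell from 265 to 138 and from 349 to 173 CPM. Of 20 tested transcription factors of cytotoxic lymphocytes 10 rose and 4 fell (median 0.65), or 14 of 20 called beside 53.6%. BATF, HOPX and NFATC2 among the 20 passed the filter only through the libraries with PMA, so nothing is read from their part in these counts. ETS1 rose from 0.506 to 23.2 CPM (log2 5.48, SE 0.22, adjusted p = 2.13e-06), NFATC1 from 2.66 to 34.6, ID2 from 94.8 to 750 and the AP-1 component JUNB from 65.5 to 391.

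These PMA counts depended somewhat on scaling. On the TPM scale, where the median of all genes fell to -0.14 with limma on log2(TPM + 1), 35.4% of called genes were higher against 52.1% with TMM. The splits there were 5 higher and 3 lower for activation and sorting, 6 and 3 for chain synthesis and 10 and 6 for docking and fusion. They were 2 and 1 for inhibitors, 2 and 1 for mast cell and neutrophil granule enzymes, 10 and 6 for transcription factors and 4 and 17 for substrates. The cytotoxic lymphocyte genes (5 and 2) and the T cell genes (1 and 1) kept the same numbers.

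**Figure D4:**
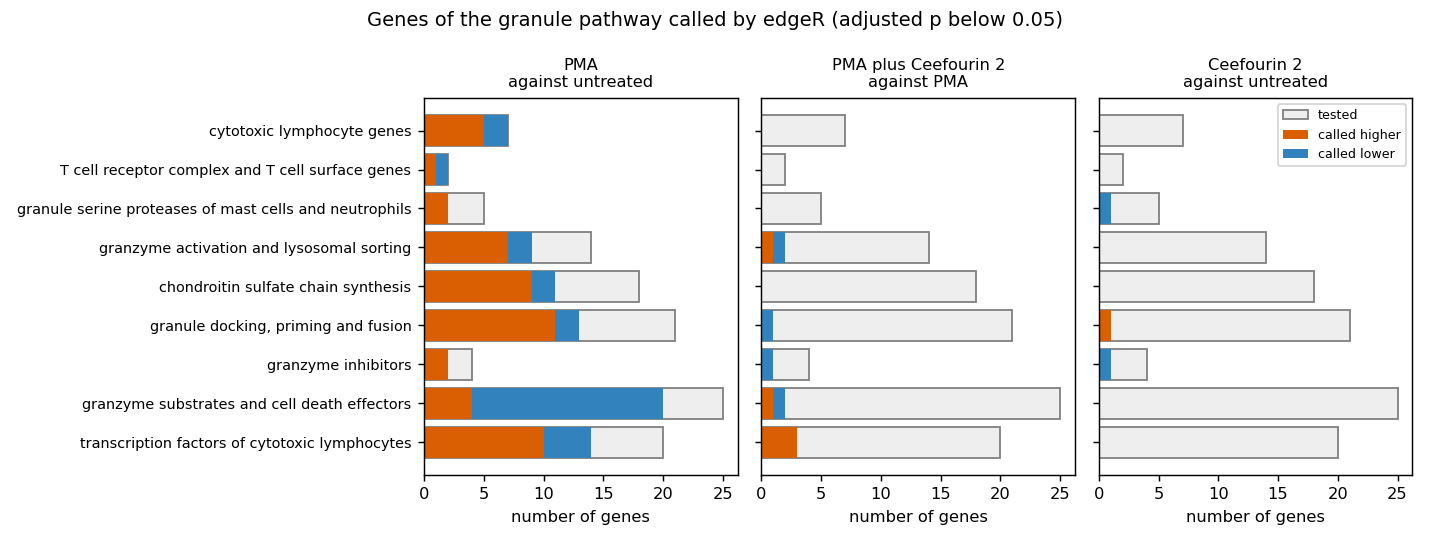
Number of genes tested, called higher and called lower by edgeR (adjusted p below 0.05) in each of 9 lists around the granule pathway, for 3 comparisons. The list of mast cell and neutrophil granule serine proteases also holds CPA3 and MPO, which are not serine proteases. After PMA 11 of 21 docking and fusion genes were higher and 2 lower. Of 25 substrates and cell death effectors 4 were higher and 16 lower. Of all tested genes 53.6% were called after PMA, in either direction. Ceefourin 2 gave at most 3 calls in any list.

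With Ceefourin 2 in PMA cells edgeR called 9 pathway genes, beside 1.83% of all tested genes. The lists were chosen with earlier results of these data known, so nothing is read from that count. Among transcription factors 3 of 20 rose and 0 fell: ETS1 from 23.2 ± 0.35 to 64.3 ± 4.75 CPM (log2 1.47, SE 0.16, adjusted p = 0.00739), NFATC1 from 34.6 to 62.4 (0.85, adjusted p = 0.0343) and RUNX3 from 9.15 to 16.1 (0.82, adjusted p = 0.0474). The cathepsin gene CTSL rose from 427 to 736 CPM (adjusted p = 0.0139), and SORT1 fell from 250 to 167 CPM (adjusted p = 0.0151), 1 in each direction of 14. UNC13D, which primes cytotoxic granules for fusion, fell from 291 ± 13.5 to 192 ± 4.88 CPM (log2 -0.60, SE 0.08, adjusted p = 0.0151), the 1 call among 21 genes of docking and fusion. SERPINB1, an inhibitor of granule serine proteases, fell from 221 ± 49.1 to 90.7 ± 8.62 CPM (log2 -1.28, SE 0.17, adjusted p = 0.0151), the 1 call among 4 inhibitors. Among 25 substrates and effectors MCL1 rose from 411 to 584 CPM (adjusted p = 0.0216) and LMNB1 fell from 179 to 104 CPM (adjusted p = 0.0187). All 9 of these calls were lost without PMA replicate 2 (adjusted p 0.0793 to 0.246), without PMA plus Ceefourin 2 replicate 1 (0.0657 to 0.253) or without its replicate 2 (0.0617 to 0.15). Without PMA replicate 1, 7 were lost (0.0507 to 0.245) and CTSL and SERPINB1 were not, and RUNX3 was also lost without untreated replicate 1 or 2 (0.0687 and 0.0688). RUNX3 was lost as well with RLE scaling (0.0502), and MCL1 and RUNX3 with only the groups compared (0.0538 and 0.0609) and on log2(TPM + 1) (0.0509 and 0.325). On log2(TPM + 0.1) MCL1, NFATC1 and RUNX3 were lost (0.0584 to 0.273). With 1 library left out the log2 value was 1.40 to 1.55 for ETS1, 0.70 to 0.88 for CTSL, -0.65 to -0.55 for UNC13D and -1.49 to -1.04 for SERPINB1, and in the fits run for RUNX3 it was 0.44 to 0.93.

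The other lists had 0 calls by edgeR in that comparison. An unadjusted p under 0.05 was held by 13.7% of all tested genes, and by 2 of 7 cytotoxic lymphocyte genes. In that list DESeq2 called 2 and limma called 1 on log2(TPM + 1) and 0 on log2(TPM + 0.1), with IL2RB nearest (4.41 to 14.6 CPM, log2 1.72, adjusted p = 0.0584). Of the 2 T cell genes 0 were under 0.05 and DESeq2 and limma called 0, with TRAC at -0.78 (adjusted p = 0.388). Of 5 mast cell and neutrophil granule enzymes 2 were under 0.05, DESeq2 called 1 and limma 1 and 0, with TPSB2 at -1.04 (adjusted p = 0.21). Of 18 chain synthesis genes 3 were under 0.05, DESeq2 called 2 and limma 0, with PXYLP1, a phosphatase of the xylose linker, at -0.83 (adjusted p = 0.101).

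Ceefourin 2 alone gave calls in 3 lists, beside 1.68% of all tested genes, and likewise nothing is read from their number. STX11, a syntaxin of cytotoxic granule fusion, rose from 3.97 ± 0.052 to 7.12 ± 0.25 CPM (log2 0.84, SE 0.14, edgeR adjusted p = 0.0306), 1 of 21. SERPINB1 fell from 166 ± 20.9 to 83.5 ± 11 CPM (log2 -0.99, SE 0.17, adjusted p = 0.0371), 1 of 4, and TPSB2 from 0.448 to 0.0795 CPM (log2 -2.48, SE 0.46, adjusted p = 0.0454), 1 of 5. All 3 calls were lost without either untreated library (adjusted p 0.0872 to 0.234), either Ceefourin 2 library (0.0791 to 0.186) or PMA plus Ceefourin 2 replicate 1 (0.0506 to 0.0656). STX11 and TPSB2 were also lost without PMA replicate 1 or 2 (0.0556 to 0.0878), and SERPINB1 and TPSB2 without PMA plus Ceefourin 2 replicate 2 (0.06 and 0.0651). All 3 were lost with only the groups compared (0.0913 to 0.139), and STX11 and TPSB2 on log2(TPM + 1) (0.0539 and 0.0666). With 1 library left out the log2 value was 0.81 to 0.89 for STX11, -1.13 to -0.84 for SERPINB1 and -2.82 to -2.19 for TPSB2.

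In the remaining lists edgeR called 0 with Ceefourin 2 alone. Unadjusted p were under 0.05 for 13.6% of all tested genes, and for 4 of 7 cytotoxic lymphocyte genes, 0 of 2 T cell genes, 2 of 14 activation and sorting genes, 4 of 18 chain synthesis genes, 3 of 25 substrates and effectors and 5 of 20 transcription factors. DESeq2 called 2, 0, 0, 1, 1 and 2 of them, and limma called 0 of them except 1 transcription factor on log2(TPM + 0.1). The genes with the smallest p were CTSW (-1.20, adjusted p = 0.113), CTSL (-0.32, adjusted p = 0.208), CHPF (0.82, adjusted p = 0.109), MCL1 (0.37, adjusted p = 0.0654) and JUNB (0.64, adjusted p = 0.1).

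Genes with the profile nearest to each abundant member were ranked over the 8 libraries by Euclidean distance between centred log2(CPM + 0.1) values, among 13558 protein-coding genes. For GZMB the nearest was A2M, a broad protease inhibitor (distance 1.91, r = 0.994), with means of 0.344, 323, 350 and 0.442 CPM in untreated, PMA, PMA plus Ceefourin 2 and Ceefourin 2 libraries. It was followed by XIRP1 (3.03), an actin-binding gene, SERPINB2 (3.13), a plasminogen activator inhibitor with 3.43, 1300, 2800 and 12.1 CPM, TFPI2 (3.43), another protease inhibitor, and CORO2B (3.55). The distances were large because GZMB had the widest span. For GZMA, the nearest were EDDM13 (0.50), GALNT16 (0.60), FSTL1 (0.63), MORC4 (0.63) and GAB2 (0.69), the last at 47.1, 49.6, 61.8 and 87.2 CPM. EDDM13 and GALNT16 were low, at group means of 0.105 to 0.358 and 0.0386 to 0.404 CPM, near the added 0.1. For SRGN they were SEMA6C (0.20), GSTO1 (0.22), BCAS3 (0.24), C9orf16 (0.24) and GALNT6 (0.28), with GSTO1 at 58.7, 139, 139 and 53.6 CPM. All values come from the same libraries. For GZMB and SRGN they mostly restate the step between libraries with and without PMA, and for GZMA the higher level with Ceefourin 2 alone.

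**Figure D5:**
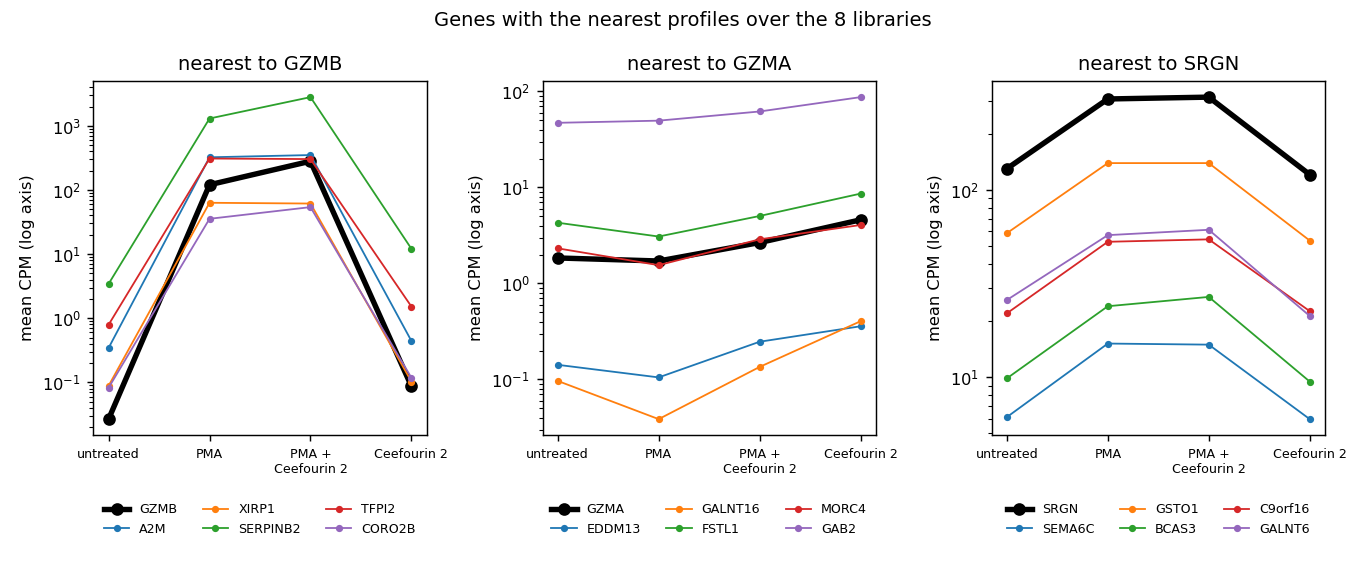
Mean CPM of 2 libraries per group on a log axis for GZMB, GZMA and SRGN (thick black) and the 5 genes with the nearest profiles; lines join groups and carry no order in time. The neighbours of GZMB and SRGN are high in the groups with PMA, and those of GZMA are highest with Ceefourin 2 alone.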

How the data were processed

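Stranded, paired-end mRNA libraries of MEG-01 cells were sequenced, per the labels' protocols. The submitters' processing notes name STAR 2.7, RSEM 1.3.1 and the hg38 build, and the sources used here do not state the annotation release. The authors deposited expected counts per gene, which are not normalized, and TPM values, per the file headers. RSEM can split reads between related genes, but it assigned 0 counts to GZMH in every library.

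Expected counts were rounded and fitted in R 4.3.3 with edgeR 4.0.16 (filterByExpr, TMM, quasi-likelihood, 1 mean per group over 8 libraries, 4 residual degrees of freedom). A p adjusted over 17314 tested genes (Benjamini-Hochberg) below 0.05 is a call, and "rose" and "fell" refer to calls. The SE of a log2 fold change was taken from its size and the F statistic (size over the root of F). Alternatives were DESeq2 1.42.0, limma 3.58.1 on log2(TPM + 1) and log2(TPM + 0.1), RLE scaling, other filters, a replicate block, fewer groups, GZMB and GZMH summed, and single libraries left out. The sum of GZMB and GZMH could change nothing, because GZMH had 0 counts in every library. The fit was tested on simulated data.

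The members, the 9 lists (149 genes) and the marker lists were chosen with earlier results of these data known. From each list up to 4 called genes of smallest p, or failing any call the gene of smallest p, could be named per comparison, and the 5 nearest profiles for members with a group mean of at least 1 CPM. Intervals are 95% and cover counting error only. Positions are from GENCODE 29 (96.4% of identifiers matched).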

Additional observations from a re-analysis of the deposited data

How the results depend on the processing

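The number of called members stayed within 1.5 times of its value in 72 of 89 recomputations. These include the sum of GZMB and GZMH, which could not differ from the main fit. For PMA plus Ceefourin 2 against PMA it was 0, but 1 without a filter on low counts (GZMB), 2 with the replicate block (GZMB, log2 1.35, adjusted p = 0.0156, and GZMA, 0.63, 0.0457) and 0 to 1 with single libraries left out (1 without PMA replicate 1). For Ceefourin 2 against untreated it was 1, but 0 with only the groups compared, 0 to 0 with single libraries left out and 0 with both PMA-treated libraries numbered 1 left out, a setting chosen after seeing the data. For PMA plus Ceefourin 2 against Ceefourin 2 it was 5, but 3 with a filter of 1 CPM in 2 libraries (PRF1 and NKG7 were not tested), 3 to 5 with single libraries left out and 3 with both PMA-treated libraries numbered 1 left out. Apart from fewer genes or samples, the cause was not tested. The replicate numbers are shared by all groups but nothing says what they mark. Deviations of same-numbered libraries correlated at 0.174 to 0.465 over 17314 genes in the 6 pairs of groups. The replicate block changed no other count of called members. Leaving out 1 library of an arm leaves the other assumed to vary like the other groups.

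Values close to 0 changed sign. With single libraries left out, the PMA effect ranged from -0.25 to 0.071 for GZMA and -0.71 to 0.0025 for NKG7, the effect of Ceefourin 2 in PMA cells from -0.10 to 0.18 for SRGN, that of Ceefourin 2 alone from -0.20 to 0.044 for SRGN and -0.23 to 0.60 for NKG7, and the interaction from -0.89 to 0.42 for GZMB and -0.019 to 0.29 for SRGN. The GZMB interaction was 1.17 on log2(TPM + 1), 0.64 on log2(TPM + 0.1) and 0.38 with both PMA-treated libraries numbered 1 left out, where SRGN in PMA cells was -0.012 with the inhibitor.

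Over all genes, calls in PMA plus Ceefourin 2 against PMA were 317, but 799 with DESeq2, 1211 without a filter, 194 on log2(TPM + 0.1), 1482 with the replicate block, 21 to 109 without a library of either group and 1 without both libraries numbered 1. For Ceefourin 2 alone they were 291, but 837, 1174 and 1430 with DESeq2, no filter and the block, 31 with only the groups compared, 30 to 188 without 1 library and 41 without both libraries numbered 1. For the interaction they were 2, but 210 with DESeq2, 414 without a filter, 247 with the block, 5 with RLE, 18 and 8 on the TPM scales, 0 with a filter of 1 CPM, 0 to 2 without 1 library and 0 without both libraries numbered 1. On log2(TPM + 0.1) 38.1% of calls in PMA plus Ceefourin 2 against PMA were higher, against 50.2%. Of 801 recomputed list counts 116 moved by over 1.5 times, and of 1348 recomputed values of other named genes 108 lost their call and 0 changed sign. Low counts limit PRF1, NKG7, GZMM and GZMH in every group and GZMB without PMA.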
